A study of Mus musculus with 4 samples.

Results

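The genes described here serve cavitation, the step in which the mouse morula fills with fluid and becomes a blastocyst. They are 8 genes of 53715 in the deposited gene table, chosen by name: Atp1b1 and Atp1b3 of the sodium pump, the aquaporin genes Aqp3, Aqp8, Aqp9 and Aqp11, the sodium-proton exchanger gene Slc9a3, and Fxyd5 of the pump's regulators. Of these, 6 reached 5 TPM (a transcript abundance scaled for gene length and library total) in at least 1 library, as did 10420 genes in all. Aqp11 and Slc9a3 did not.

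During cavitation the outer cells, the trophectoderm, seal themselves with tight junctions and pump sodium across their basolateral membrane into the space beneath. The pump, Na+/K+-ATPase, pairs a catalytic α subunit with a β subunit needed for its folding and delivery to the membrane, and small FXYD proteins tune its activity. Sodium enters the cells through apical routes such as sodium-proton exchangers, and water follows the ions, in part through aquaporins.

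Blastocyst libraries were compared to see how α-ketoglutarate (α-KG) and 2-hydroxyglutarate (2-HG) affect the early embryo. All embryos were C57BL/6 zygotes from the oviduct, grown in KSOM, an embryo culture medium. They were exposed from the 2-pronuclei stage to α-KG at 0.15 mM or to 2-HG at 0.3 mM, and each compound had its own negative control. Each of the 4 groups holds 1 library, so no spread between replicates and no test is given for any difference. The number of embryos behind a library, their sexes and the form of 2-HG are not given in the sources used here.

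The deposited TPM have almost the same sum in each library, the read depth is unknown, and between 9062 and 9417 genes reached 5 TPM per library. The trophectoderm markers Krt8 and Krt18 lay between 1985 and 4339 TPM, and 8 of 8 trophectoderm and 6 of 6 epiblast markers reached 5 TPM in some library. Of 5 primitive endoderm markers, 2 did (Gata6 and Pdgfra), while Gata4, Sox17 and Sox7 stayed at or below 1.67 TPM. Markers of cumulus cells summed to at most 0.12 TPM, of oviduct to at most 1.70 TPM and of blood to at most 2.52 TPM. Oocyte markers summed to 1.26 and 1.39 TPM in the control and treated libraries of the α-KG pair, and to 2.59 and 6.21 TPM in those of the 2-HG pair. In whole embryos, fewer cells of a type and less RNA per cell cannot be told apart.

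The sequence upstream of the start site is shown for the genes of both β subunits, the most abundant members, and for Aqp3, 1 of the 2 abundant aquaporin genes. Each run holds the 250 bases before the start, from RefSeq on GRCm38.p6, read 5′ to 3′ on the gene's own strand, which is the minus strand for all 3. They span chr1:164458356-164458605 (Atp1b1), chr9:96364432-96364681 (Atp1b3) and chr4:41098184-41098433 (Aqp3). Capitals mark matches on either strand to 3 promoter motifs, shown as their reverse complement where they lie on the other strand. The first is the TATA box, searched as TATAAA. The second is the GC box, searched as GGGCGG. The CCAAT box was searched as written.
Atp1b1: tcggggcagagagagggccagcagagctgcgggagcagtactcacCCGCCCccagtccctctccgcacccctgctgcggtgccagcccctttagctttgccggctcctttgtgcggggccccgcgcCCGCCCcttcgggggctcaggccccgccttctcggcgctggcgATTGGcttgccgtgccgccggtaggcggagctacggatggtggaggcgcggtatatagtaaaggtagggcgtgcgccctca
Atp1b3: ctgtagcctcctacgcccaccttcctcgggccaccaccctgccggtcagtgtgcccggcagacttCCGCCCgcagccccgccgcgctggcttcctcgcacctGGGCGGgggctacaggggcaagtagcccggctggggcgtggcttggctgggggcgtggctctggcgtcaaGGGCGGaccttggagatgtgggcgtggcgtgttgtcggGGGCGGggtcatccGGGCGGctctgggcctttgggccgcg
Aqp3: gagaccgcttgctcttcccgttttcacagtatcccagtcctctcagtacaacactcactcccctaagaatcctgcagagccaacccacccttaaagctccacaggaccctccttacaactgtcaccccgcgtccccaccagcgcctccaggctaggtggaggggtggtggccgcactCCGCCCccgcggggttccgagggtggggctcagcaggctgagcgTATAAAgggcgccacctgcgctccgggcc

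RefSeq gives 10 such windows for the 8 genes, with a pair each for Atp1b3 and Aqp9. The β subunit windows printed above were rich in G and C, at 70.4% for Atp1b1 and 73.6% for Atp1b3, against a median of 52.4% over 32851 windows. The printed Atp1b3 window held 5 GC boxes and the other Atp1b3 window none. Slc9a3 held 3, Atp1b1 held 2 and Aqp3 held 1, so 4 of the 10 windows had a motif present in 32.7% of all windows. Atp1b1 had the only CCAAT box among the members, 81 bases before the start, and 33.8% of all windows hold one. The Aqp3 window had the only match to TATAAA among the members, 29 bases before the start, and 12.4% of all windows hold that motif. Other forms of the TATA box were not searched. The sequence of the Fxyd5 window is not shown because GENCODE places 150 of its bases in exons of Fxyd5 and 69 in exons of Fxyd7. That window held none of the searched motifs and 3 CpG dinucleotides. The printed Atp1b1 and Atp1b3 windows held 24 each and the other Atp1b3 window 35, against a median of 6. The Aqp9 windows were poorer in G and C, at 40.4% and 41.6%. GENCODE places 128 bases of the 40.4% window in exons of Aqp9, and both windows lie inside its Aqp9 gene. It also places 11 bases of the printed Atp1b3 window in exons of Atp1b3. A motif bound by TEAD factors, GGAATG, stood in 1 window, that of Aqp8, and is in 12.6% of all windows. The motif of TFAP2 factors, GCCNNNGGC, stood in none of the 10, and 13.7% of all windows hold it. A match is a string of letters and was not tested as a binding site.

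Both β subunit genes were abundant and nearly level across the 4 libraries. Atp1b1 (ENSMUSG00000026576.12, chromosome 1, 164437109 to 164458355 on the minus strand in GRCm38), which encodes β1, stood at 150 and 173 TPM in the control and treated libraries of the α-KG pair, and at 167 and 153 TPM in those of the 2-HG pair. In the same order, which is used for all later runs of 4 values, Atp1b3 (ENSMUSG00000032412.8, chromosome 9, 96332655 to 96364442 on the minus strand), which encodes β3, stood at 193, 172, 192 and 189 TPM. In every library Atp1b1 and Atp1b3 each lay above at least 86.6% of the genes that reached 5 TPM.

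On the log2(TPM + 1) scale, Atp1b1 differed from its control by 0.21 with α-KG and by -0.12 with 2-HG, and Atp1b3 by -0.17 and -0.02. The control libraries differed from each other by 0.15 for Atp1b1 and -0.01 for Atp1b3. The median gene was 0.05 higher with α-KG, 0.12 lower with 2-HG (a value of -0.12) and differed by 0.09 between the controls. Set against that median, Atp1b1 stood at -0.00 and Atp1b3 at 0.10 with 2-HG, so the sign for Atp1b3 turns with the scaling. The range over the 4 libraries was 0.21 for Atp1b1 and 0.17 for Atp1b3, against a median of 0.63 over 10420 genes. Among genes within 2-fold of its mean level, 10.3% varied less than Atp1b1 and 6.42% less than Atp1b3.

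The make-up of the β subunit transcripts differed little between libraries. Atp1b1 took 43.7%, 50.1%, 46.4% and 44.5% of the summed β TPM, and nearly all of the rest was Atp1b3. Atp1b2 reached at most 1.43 TPM, and Atp1b4 was listed at 0 in all 4 libraries. The summed β TPM was 343, 345, 359 and 343. The 3′ end of Atp1b1 shares 575 bases of UTR with exons of Nme7, a gene on the opposite strand at 22.7, 16.3, 19.5 and 19.0 TPM. Strand use in the counting is not given in the sources used here.

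**Figure D1:**
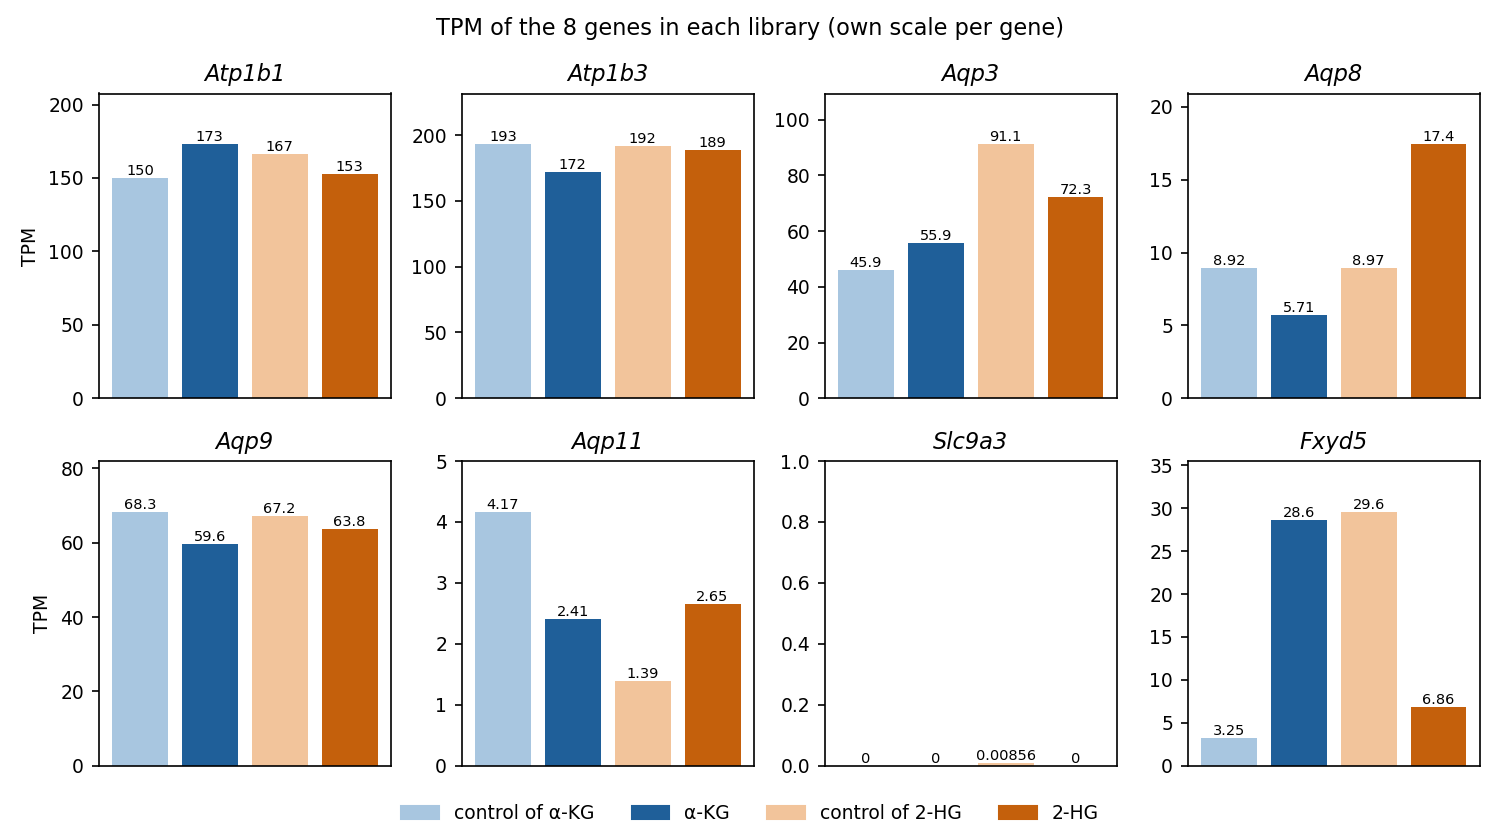
TPM of each member (vertical axes, linear from 0 and scaled per gene) in the 4 libraries, 1 bar per library with its value above it. Atp1b1, Atp1b3 and Aqp9 are nearly level, Aqp3 is higher in both libraries of the 2-HG pair, Aqp8 is highest with 2-HG, and Fxyd5 is high in the α-KG library and the 2-HG control.

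Water channel transcripts came mostly from Aqp3 and Aqp9, which together took between 85.5% and 92.8% of the summed aquaporin TPM. Both encode aquaglyceroporins, which pass glycerol as well as water. In the mouse blastocyst the Aqp9 protein is known from the apical side of the trophectoderm, and Aqp3 and Aqp8 from the basolateral side. Of 12 aquaporin genes, 7 were listed at 0 in all 4 libraries (Mip, Aqp1, Aqp2, Aqp4, Aqp5, Aqp6 and Aqp12), and Aqp7 lay between 0.88 and 3.04 TPM.

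Aqp9 (ENSMUSG00000032204.13, chromosome 9, 71110659 to 71168682 on the minus strand) stood at 68.3 and 59.6 TPM in the control and treated libraries of the α-KG pair, and at 67.2 and 63.8 TPM in those of the 2-HG pair. It was as steady as the β subunit genes, with a range of 0.19 on the log2 scale. Among genes within 2-fold of its mean level, 5.39% varied less. Its differences from the matching control were -0.19 with α-KG and -0.07 with 2-HG, and -0.02 between the controls. Against the all-gene median the 2-HG value was 0.05, so its sign turns with the scaling. Gm32511, an antisense gene that overlaps the Aqp9 locus but shares no exon with it, stood at 12.5, 8.80, 7.998 and 5.98 TPM.

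Aqp3 (ENSMUSG00000028435.8, chromosome 4, 41092722 to 41098183 on the minus strand) was higher in the 2-HG pair than in the α-KG pair. It stood at 45.9 and 55.9 TPM in the control and treated libraries of the α-KG pair, and at 91.1 and 72.3 TPM in those of the 2-HG pair. Both libraries of the 2-HG pair lay above both of the α-KG pair. The difference between the controls was 0.97, against 0.28 for α-KG and -0.33 for 2-HG. With the other control in its place, the α-KG difference was -0.70 and the 2-HG difference 0.64, so both signs turned. The Aqp3 share of the aquaporin TPM was 35.6%, 44.9%, 53.3% and 45.4%.

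The summed trophectoderm markers stood at 6060, 6995, 6538 and 7228 TPM, and the summed epiblast markers at 373, 358, 329 and 273 TPM. Krt8 and Krt18 make up most of the trophectoderm sum and were above their control with 2-HG, by 0.22 and 0.16. The other 5 of 7 trophectoderm markers measured with 2-HG were below it, also after scaling, with differences of -0.33 for Cdx2, -0.35 for Gata3, -0.69 for Eomes, -0.54 for Tfap2c and -0.25 for Tead4. The median over the 7 was -0.33. With α-KG 7 of 8 were above the control, or 5 of 8 after scaling. Elf5 was below it with a difference of -1.85, at 6.90, 1.195, 0.76 and 0.78 TPM. In the 2-HG control 7 of 8 trophectoderm markers were above the α-KG control, or 4 of 8 after scaling. The median there was 0.07, beside 0.09 for all genes, and Elf5 differed by -2.17. Zfp42 makes up most of the epiblast sum. Between the controls 5 of 5 measured epiblast markers were below 0, also after scaling, with a median of -0.15, beside 0.09 for all genes. With 2-HG 4 of 4 were below 0, or 2 of 4 after scaling, and with α-KG 3 of 6, or 4 of 6. Sox2 stood at 8.91, 9.18, 2.38 and 1.92 TPM and Fgf4 at 4.11, 6.41, 0.98 and 2.48 TPM. The Sox2 difference was -1.55 between the controls. The tight junction genes, a list of 11 with 11 measured, summed to 986, 1052, 1601 and 1139 TPM, with Cldn4 at 91.6, 139, 394 and 155 TPM. With α-KG none of the 11 differed by at least 1 and the median was 0.06, beside 0.05 for all genes. With 2-HG 2 were lower by at least 1, where 5.65% of all genes were, and the median was -0.35, beside -0.12. They were Cldn4 and Cgn, the latter at 42.2, 40.2, 48.9 and 4.13 TPM, a difference of -3.28 with 2-HG. In that comparison 11 of 11 were below 0, also after scaling. Between the controls 2 were higher, where 5.99% of all genes were, and the median was 0.35, beside 0.09. The part of these markers and genes in the Aqp3 levels was not tested.

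Aqp8 (ENSMUSG00000030762.11, chromosome 7, 123462291 to 123468004 on the plus strand), which encodes a water channel, was low in most libraries and highest with 2-HG. It stood at 8.92 and 5.71 TPM in the control and treated libraries of the α-KG pair, and at 8.97 and 17.4 TPM in those of the 2-HG pair. The controls were nearly equal, with a difference of 0.01. The difference with 2-HG was 0.89 against its own control and 0.89 against the α-KG control, in each case short of 1, the difference that passes the 2-fold rule. It came to 0.99 after scaling each library by its median ratio to the average over libraries (median-of-ratios scaling), 0.95 with a pseudocount of 0.1 and 1.01 above the all-gene median. With α-KG the difference was -0.56 against its own control and -0.57 against the other. Aqp8 took 10.95% of the aquaporin TPM with 2-HG and between 4.59% and 6.92% in the other libraries. Among genes within 2-fold of its mean level, 88.4% varied less over the 4 libraries. The summed oocyte markers, given above, were also highest with 2-HG, through Gdf9 (4.75 TPM) and Bmp15 (1.03 TPM). Zp3 and Oosp1 were highest in the 2-HG control, at 1.07 and 0.23 TPM. None of the 4 reached 5 TPM, and their part in the Aqp8 value was not tested.

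Aqp11 (ENSMUSG00000042797.9, chromosome 7, 97724006 to 97738289 on the minus strand), an aquaporin of intracellular membranes, stayed under the 5 TPM minimum, so no call was made. It stood at 4.17 and 2.41 TPM in the control and treated libraries of the α-KG pair, and at 1.39 and 2.65 TPM in those of the 2-HG pair. The controls were the highest and the lowest of the 4 libraries, 1.11 apart on the log2 scale. The treated libraries lay between them.

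**Figure D2:**
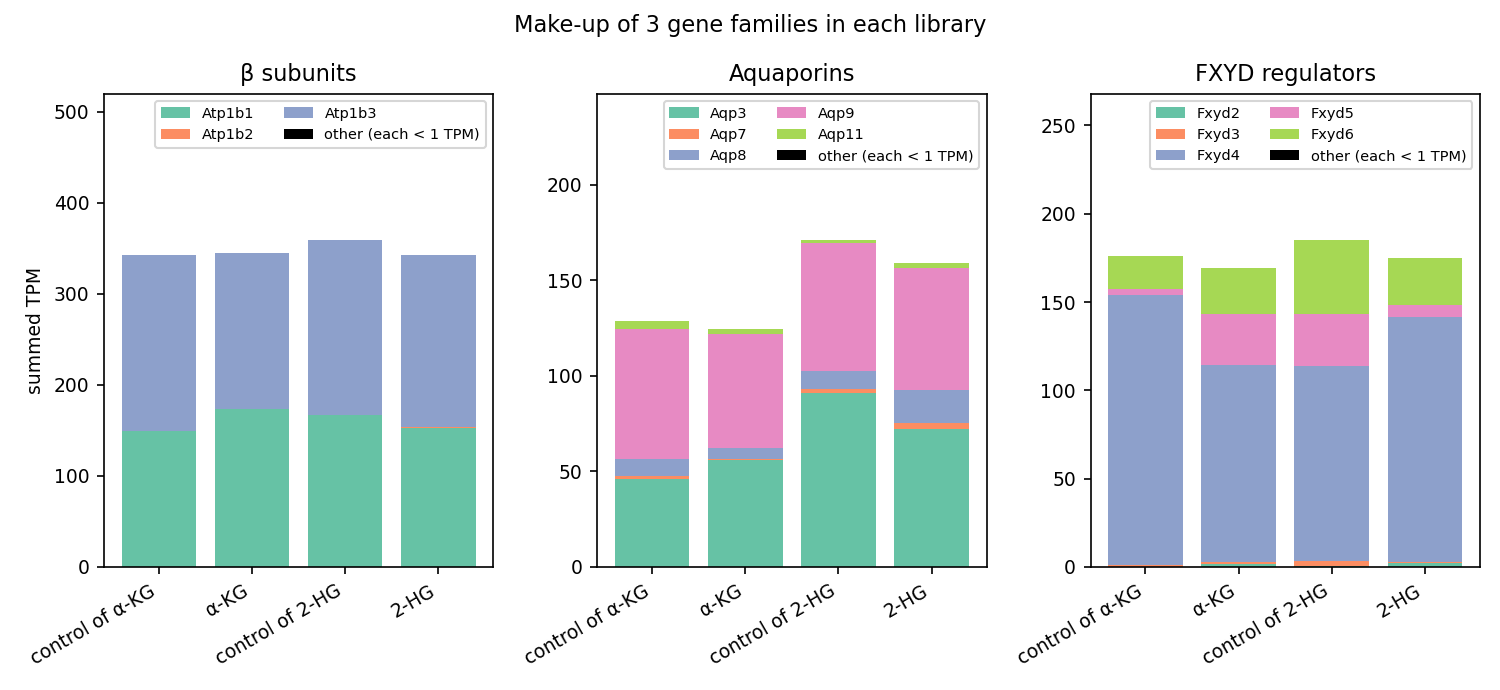
Summed TPM (vertical axes, linear from 0) of the β subunit, aquaporin and FXYD genes in the 4 libraries, stacked by gene, with genes under 1 TPM in every library pooled in black. The β subunits divide almost evenly between Atp1b1 and Atp1b3, Aqp3 and Aqp9 dominate the aquaporins, and Fxyd4 dominates the FXYD genes while Fxyd5 forms a thin band in the α-KG control and with 2-HG.

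Slc9a3 (ENSMUSG00000036123.8, chromosome 13, 74121457 to 74169442 on the plus strand) was practically without signal. It encodes NHE3, an exchanger known from the apical membrane of the mouse trophectoderm. It was listed at 0 TPM in 3 libraries and at 0.0086 TPM in the 2-HG control, and no fold is given. Of the other exchanger genes, Slc9a2 and Slc9a4 were listed at 0 in all 4 libraries. Slc9a8, which encodes an exchanger of the Golgi, stood at 17.9, 12.6, 23.2 and 16.4 TPM. The exchanger scaffold gene Slc9a3r1 (NHERF1) was far more abundant, at 187, 252, 275 and 219 TPM. Slc9a8 and Slc9a3r1 were both below their control with 2-HG, also after scaling, and above the α-KG control in the 2-HG control, neither of them past the 2-fold rule.

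Fxyd5 differed most of all members. It encodes dysadherin, a FXYD protein known to modulate both the pump and cell adhesion. Fxyd5 (ENSMUSG00000009687.14, chromosome 7, 31032722 to 31042481 on the minus strand) stood at 3.25 and 28.6 TPM in the control and treated libraries of the α-KG pair, and at 29.6 and 6.86 TPM in those of the 2-HG pair. High and low libraries thus each included a treated library and a control.

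With α-KG, Fxyd5 was 2.80 higher than in its control on the log2(TPM + 1) scale, an 8.80-fold ratio of TPM. The α-KG control, at 3.25 TPM, lies under the 5 TPM minimum, so the size rests on a low value. With pseudocounts of 0.1 and 5 the difference was 3.10 and 2.03. Fxyd5 was the 1 member of 6 measured past the 2-fold rule, a difference of at least 1. Of 9878 genes, 4.21% were higher by that rule and 7.31% differed in either direction. With 2-HG, Fxyd5 was lower than in its control, at -1.96, again the 1 member of 6 past the rule, where 5.65% of 9834 genes were lower and 8.01% differed in either direction. Between the controls Fxyd5 was 2.85 higher in the 2-HG control, also the 1 member of 6. There 5.99% of 9927 genes were higher and 8.86% differed in either direction. This Fxyd5 difference rests on the same low value, and was 3.15 and 2.07 with those pseudocounts.

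The choice of control decided these calls. Against the 2-HG control the α-KG library differed by -0.047, and against the α-KG control the 2-HG library differed by 0.89, both under the rule and opposite in sign to the values above. No member passed in either case, where 8.5% and 9.14% of genes differed in either direction. Against the mean of both controls the differences were 1.38 with α-KG and -0.54 with 2-HG, where 5.62% and 6.67% of genes passed. By a 4-fold rule, a difference of at least 2, Fxyd5 passed with α-KG (1.55% of genes) and between the controls (1.5%), and no member passed with 2-HG (1.56%). A call of higher for α-KG together with a call of lower for 2-HG, each against its own control, was shared by 47 of 10420 genes, or 0.451%.

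Over all 4 libraries Fxyd5 ranged over 2.85 log2 units, more than 98.4% of the 10420 genes and more than 98.6% of the genes within 2-fold of its mean level. The microRNA gene Mir7050 lies within Fxyd5 exons (60 bases) and was listed at 0, as was its neighbour Fxyd7 on the same strand. GENCODE lists 14 transcripts for Fxyd5, more than for any other member, and the deposited table gives 1 value per gene.

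**Figure D3:**
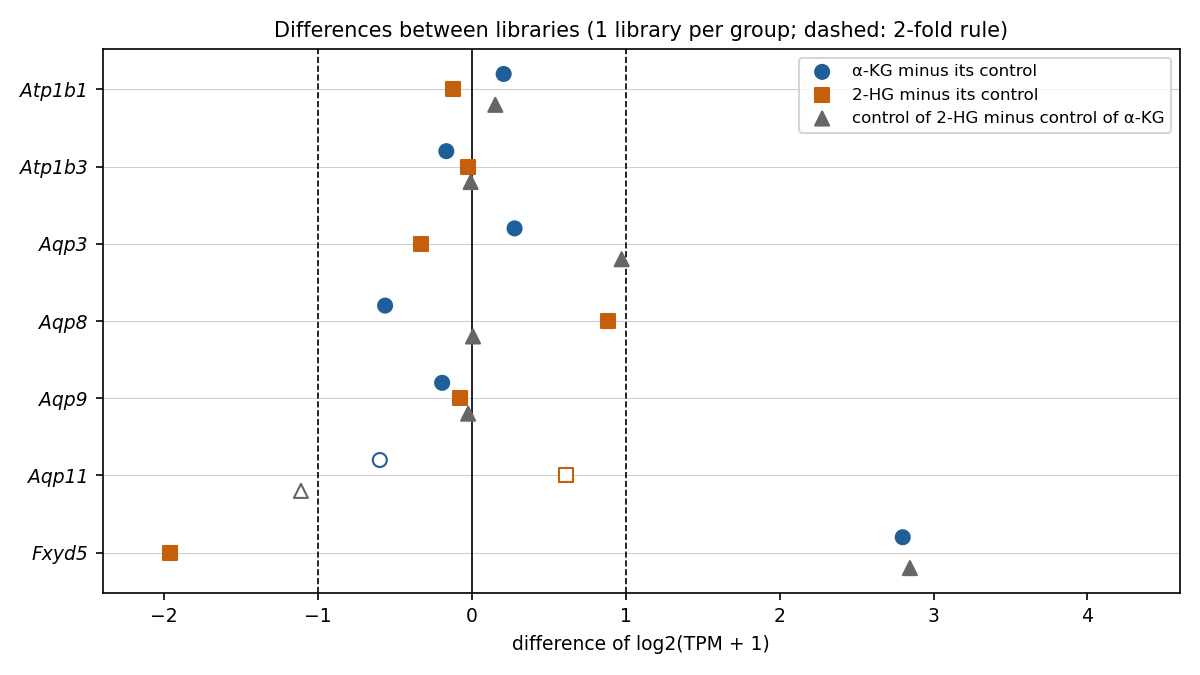
Difference of log2(TPM + 1) for each member except Slc9a3 (horizontal axis) in the treated comparisons and between the controls, with dashed lines at the 2-fold rule and open symbols for Aqp11, which stayed under 5 TPM. Fxyd5 alone among measured members lies past the lines, at 2.80 with α-KG, -1.96 with 2-HG and 2.85 between the controls.

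The other FXYD genes that reached 5 TPM, Fxyd4 and Fxyd6, differed less. Fxyd4, known as a pump regulator of the kidney collecting duct, was the most abundant, at 153 and 112 TPM in the control and treated libraries of the α-KG pair, and at 111 and 139 TPM in those of the 2-HG pair. It was lower in the libraries in which Fxyd5 was high. Its differences of -0.45 with α-KG, 0.32 with 2-HG and -0.46 between the controls were under the rule. Fxyd6 stood at 19.0, 26.1, 41.4 and 26.6 TPM, with differences of 0.44 with α-KG, -0.62 with 2-HG and 1.09 between the controls, the same signs as those of Fxyd5. The FXYD genes together summed to 176, 169, 185 and 175 TPM. Fxyd5 took 1.85%, 16.9%, 16.0% and 3.92% of that sum.

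**Figure D4:**
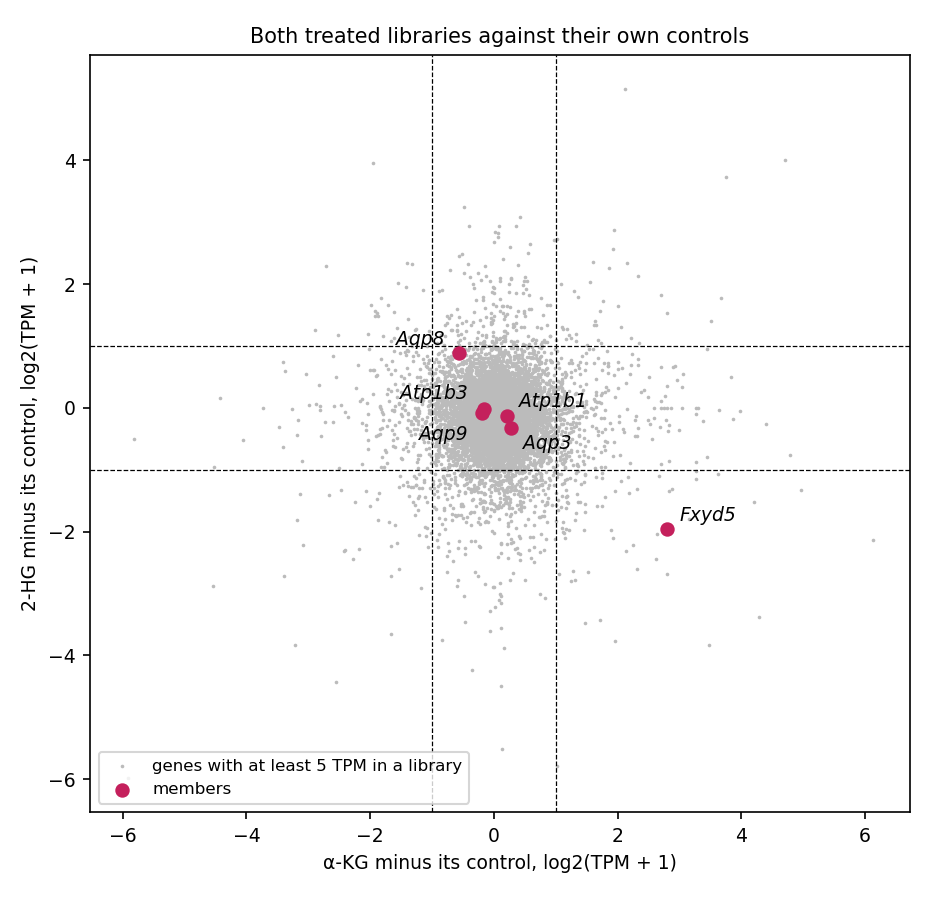
Difference of log2(TPM + 1) with α-KG (horizontal axis) and with 2-HG (vertical axis), each against its own control, for 10420 genes (grey) and the 6 measured members (red), with dashed lines at the 2-fold rule. Fxyd5 lies at 2.80 and -1.96, Aqp8 at -0.56 and 0.89, and the other members lie near the centre.

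As a set, the members lay close to the middle of all genes. Their median difference was 0.02 with α-KG, beside 0.05 for all genes, -0.10 with 2-HG, beside -0.12, and 0.08 between the controls, beside 0.09. With α-KG 3 of 6 were above 0, and with 2-HG 5 of 6 were below 0, which became 3 of 6 with median-of-ratios scaling.

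The other pump, channel, exchanger, ion transport and regulator genes numbered 63, of which 22 reached 5 TPM and 15 were listed at 0 in all libraries. With α-KG 1 of 22 was higher by the 2-fold rule and none lower, beside 4.21% of all genes higher, and the median was 0.24. With 2-HG 1 of 21 was lower and none higher, beside 5.65% of all genes lower, and the median was -0.22. Between the controls 2 of 21 were higher and 1 was lower, beside 5.99% of all genes higher and 8.86% in either direction, and the median was 0.36. With 1 call each, the treated comparisons stand near the share over all genes. The medians of all genes were 0.05 with α-KG, -0.12 with 2-HG and 0.09 between the controls. Above 0 lay 16 of 22 list genes with α-KG, 7 of 21 with 2-HG and 17 of 21 between the controls. After median-of-ratios scaling these were 16, 10 and 17, and the list medians were 0.19, -0.11 and 0.27. Against the other control the list medians were -0.09 with α-KG and 0.05 with 2-HG, opposite in sign. All genes then had medians of -0.036 with α-KG and -0.038 with 2-HG.

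Mapk14, which encodes p38α, of a kinase family studied in mouse blastocyst formation, gave both treated calls. It stood at 4.39 and 20.04 TPM in the control and treated libraries of the α-KG pair, and at 45.1 and 2.40 TPM in those of the 2-HG pair. Like Fxyd5, it was low in the α-KG control and with 2-HG. Its differences were 1.96 with α-KG and -3.76 with 2-HG, and 3.09 between the controls. Against the 2-HG control it was lower with α-KG, at -1.13. The 2-HG library lay below both controls for Mapk14, at -2.21 against their mean. Yes1, a SRC family kinase gene, stood at 20.3, 15.2, 6.93 and 10.9 TPM, a difference of -1.43 between the controls. Against the 2-HG control it was higher with α-KG, at 1.03.

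Among genes of other ion routes, those for epithelial sodium channel subunits (Scnn1a, Scnn1b and Scnn1g) and for the sodium-glucose transporter Slc5a1 were at or below 0.18 TPM. Slc12a2 (NKCC1), which carries sodium, potassium and chloride into cells, stood at 16.2, 16.9, 11.6 and 9.86 TPM. The potassium-chloride cotransporter gene Slc12a4 stood at 11.3, 21.7, 12.6 and 12.5 TPM, with a difference of 0.89 for α-KG, while its relative Slc12a7 lay between 7.35 and 11.02 TPM. Car4, a membrane-bound carbonic anhydrase, was higher in both treated libraries than in either control, at 17.7, 31.7, 24.8 and 47.0 TPM. Its differences were 0.81 with α-KG and 0.90 with 2-HG, under the rule, and 1.01 with 2-HG after median-of-ratios scaling. Against the other control the 2-HG difference was 1.36, the single call of these genes in that comparison, and against the mean of both controls it was 1.13. The potassium channel gene Kcnk5 stood at 8.28, 10.7, 12.6 and 17.5 TPM, and the anion exchanger gene Slc4a2 at 11.1, 12.4, 14.8 and 9.08 TPM.

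Of the regulators, Sgk1, a kinase that raises sodium transport in epithelia, stood at 174, 181, 186 and 127 TPM. The ubiquitin ligase genes Nedd4l and Nedd4 stood at 48.6, 64.1, 62.2 and 57.8 TPM and at 9.15, 16.2, 14.4 and 13.5 TPM. Prkcz, an atypical protein kinase C gene, was higher in the 2-HG pair, as Aqp3 was, at 51.7, 71.2, 93.9 and 94.7 TPM. Its relative Prkci stood at 20.7, 17.9, 19.7 and 12.4 TPM, and Src at 4.30, 6.91, 4.17 and 1.28 TPM.

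**Figure D5:**
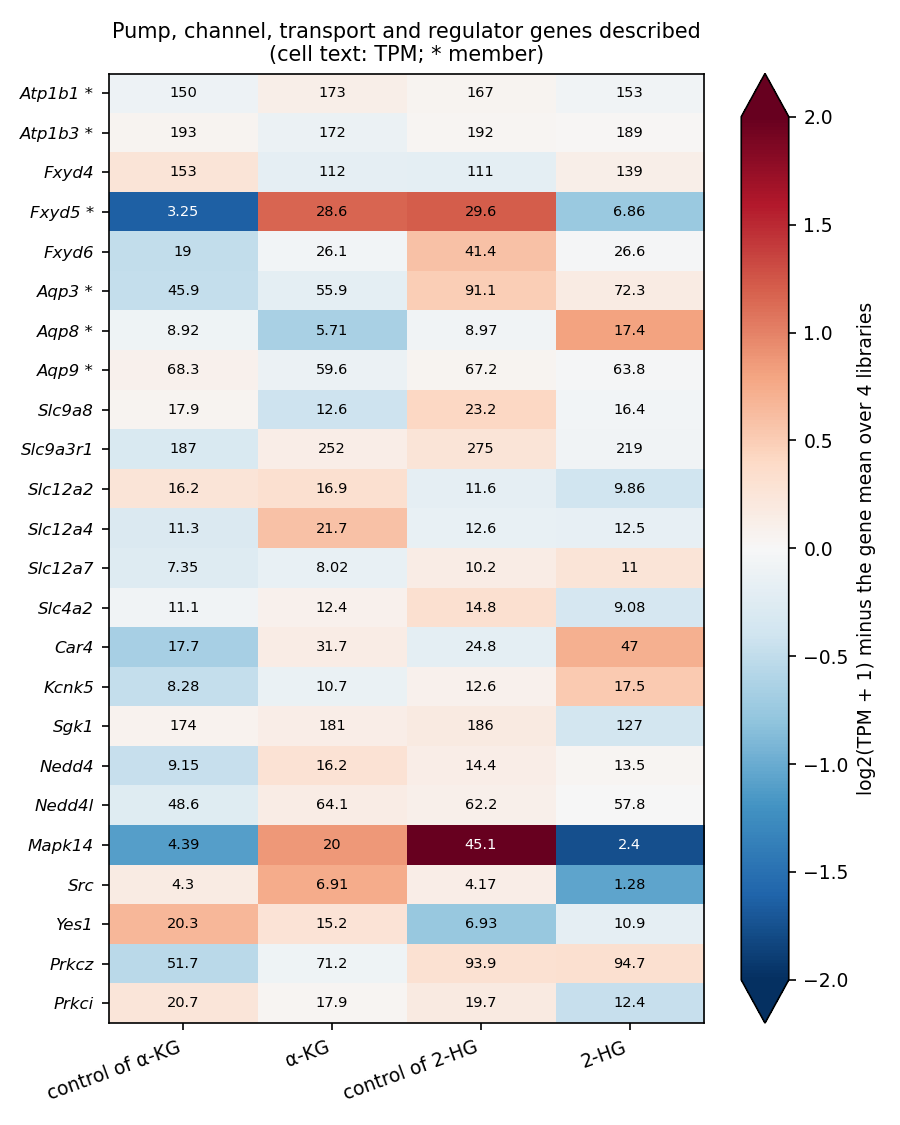
The members and other pump, channel, transport and regulator genes described here, each with at least 5 TPM in a library (rows, members starred) in the 4 libraries (columns), with TPM in each cell and colour for log2(TPM + 1) minus the gene's mean over the libraries, limited to 2 in either direction. Fxyd5 and Mapk14 are low in the α-KG control and with 2-HG, Atp1b1, Atp1b3 and Aqp9 are nearly white, and Aqp3 and Prkcz are higher in the 2-HG pair.

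Likeness of profile was measured as the root mean square distance of centred log2(TPM + 1) values over the 4 libraries, among 9029 other protein-coding genes with at least 5 TPM in a library. With 4 points, many genes look alike by this measure, most of all those that vary little, since the distance is not scaled by range. Of the 9029 genes, 8.73% lay within 0.1 of Atp1b1, 7.13% of Atp1b3 and 6.68% of Aqp9. The nearest gene was Spg11 for Atp1b1 (0.0052), Pex3 for Atp1b3 (0.012) and Rsu1 for Aqp9 (0.0043), followed by Pnpt1 and Pum2, Pafah2 and Tbcb, and Tmem38b and Eif1a. Aqp3 had 69 genes within 0.1, with Mtfr1l (0.010), Noc4l and Zmat5 the nearest. Aqp8 had 5, with Ensa (0.050), Srgn and Atg9a the nearest. Fxyd5, the member with the widest range, had none within 0.25. Its nearest, Gm20390 (0.37), Cbr2 and Gm26992, were listed at 0 in the α-KG control and reached at most 8.60 TPM.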

How the data were processed

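Blastocyst RNA was measured in 4 libraries, 1 per group. The authors deposited TPM per gene. The submitters' processing notes list the tools Trimmomatic, HISAT2, Picard, StringTie and DESeq2 and the builds mm10 and GRCm38.p6, without versions or roles. Per the labels' protocols, Triton X-100 was applied to the embryos and the libraries started from pre-amplified cDNA. A second deposited worksheet was not used, since it holds none of the 8 genes. It has 10 columns of library values, 6 of them from libraries with no description in the labels. No counts were used, so no counting error or detection limit is given.

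Gene IDs were matched without their version to GENCODE M21 (53620 of 53715), and coordinates are 1-based on GRCm38. Differences of log2(TPM + 1) were computed in Python 3.11.15 with pandas 2.3.3 and numpy 2.4.6. A gene was measured in a comparison where either library reached 5 TPM, and passed the 2-fold rule at a difference of at least 1. On this scale the change of a weakly expressed gene is understated. The controls were compared as a yardstick, which shares a library with each treated comparison and crosses the pairs, as those do not. The calculation was tested on simulated data without noise, with changes placed in abundant genes only. It cannot show how the rule performs on noisy libraries or weakly expressed genes.

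The members and gene lists were chosen with earlier results of these data known. Named genes were the members, list genes with at least 5 TPM in a library, the 3 nearest profiles per measured member, and genes sharing exons with a member. Some genes were named after their values were seen. They were neighbours without shared exons (Fxyd7 and Gm32511), list genes under 5 TPM, the tight junction genes Cldn4 and Cgn and the cell type markers. The alternatives were other pseudocounts, minimums, scaling, controls and a 4-fold rule. Results on some named genes are not reported here.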

Additional observations from a re-analysis of the deposited data

How the results depend on the processing

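With 1 library per group, the control used decided the calls. For Fxyd5, the α-KG difference was -0.047 and the 2-HG difference 0.89 against the other control, opposite in sign to the values against its own. Members past the rule then numbered 0 of 6 with α-KG and 0 of 6 with 2-HG, where the own controls gave 1 each. Of the other cavitation genes 2 of 22 passed with α-KG, where 8.5% of all genes did. Against its own control 1 of 22 passed, where 7.31% of all genes did. With 2-HG 1 of 20 still passed, where 9.14% of all genes did, but it was Car4 (1.36) and not Mapk14. Against the mean of both controls, 0 of 6 members passed with 2-HG. Of the other genes 0 of 22 passed with α-KG and 2 of 21 with 2-HG (Car4 and Mapk14), where 5.62% and 6.67% of all genes did. Median-of-ratios scaling also gave 2 of 21 with 2-HG, adding Car4, where 7.55% of all genes passed. It moved the split of all genes with 2-HG from 232 higher and 556 lower to 297 and 443. At a 4-fold rule 0 of 6 members passed with 2-HG, where 1.56% of all genes did. Of the other genes 0 of 22 passed with α-KG and 1 of 21 between the controls, where the 2-fold rule gave 3. The shares of all genes by the 4-fold rule were 1.55% with α-KG and 1.5% between the controls. With no minimum, 2 members passed between the controls (Aqp11 was added, at -1.11), and of the other genes 4 passed with α-KG, 8 with 2-HG and 6 between the controls. Of all genes 4.14%, 4.08% and 4.20% then passed in the same order. The cause of these moves was not tested. Of 44 recomputed counts 30 stayed within 1.5 times. Pseudocounts of 0.1 and 5 and a minimum of 20 TPM changed no call of a member. No paired analysis was possible because each group holds 1 library.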
